A study of Solanum tuberosum with 5 samples.

Results

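The 104 transcript tags described here stood at least 6-fold higher after 5 days than at day 0 in potato plantlets, both in those kept in long days and in those moved to short days. A tag is a short stretch of a polyadenylated transcript next to a restriction site, and its count measures how abundant that transcript is. The members were chosen from the measured values by a fixed rule. A tag had to be listed in all 5 libraries at a level of at least 10 TPM (tags per 1000000 tags of the library) in at least 1 of them, and with 1 TPM added to each value both day 5 libraries had to reach 6 times day 0. The files held 27553 distinct tags, of which 8910 were listed in every library and 6208 of those reached 10 TPM. The 104 members were 1.68% of these 6208 tags, which serve below as the tags tested.

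All plantlets were Solanum tuberosum of the genotype labelled E26 and shared 3 weeks of long days (LD). The library LD0 was made at that point. LD2 and LD5 followed after 2 and 5 more days in LD, and SD2 and SD5 after 2 and 5 days in short days (SD); the number in each name is the day. There was no SD group at day 0, so both time courses start from the same LD library. Each group is 1 library of whole plantlets, and the number of plantlets behind it is not given in the sources used here. No comparison below has a replicate check or a p-value, and fewer cells of a type cannot be told apart from less RNA per cell.

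In potato, tuber formation is favoured by short days. Leaves perceive day length, and a mobile protein related to the flowering signal FLOWERING LOCUS T travels to the stolons, where it promotes tuber formation. In long days its expression in the leaf is held down by a repressor that depends on CONSTANS-type proteins. Young plantlets also change with age in a constant photoperiod. The files do not pair tags with genes, so no member can be given a gene name or a role. The members are numbered by the mean of their LD5 and SD5 levels, with tag 1 the most abundant.

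The libraries were similar in depth, between 3492458 tags (SD5) and 3688118 tags (LD5). They were not equally distant from LD0. A tag was called different between libraries when the log2 ratio with 1 TPM added was at least 1 in size and the larger value reached 10 TPM. In addition, 1 had to lie outside the exact 95% counting interval of the ratio with nothing added. By that rule 17.9% of the 6208 tags differed between SD2 and LD0, against 30.4% for LD2, 40.3% for LD5 and 45.5% for SD5. SD2 was therefore the library nearest to day 0 over all tags, which moves with the day 2 results below. The part of that closeness in them was not tested.

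The rise itself was set by the rule and is given as a description. At LD0 the members ranged from 0.56 to 120.9 TPM with a median of 4.93. At LD5 they ranged from 10.3 to 3937 TPM with a median of 53.3, and at SD5 from 10.3 to 909.7 TPM with a median of 60.0. The median log2 ratio over day 0 was 2.96 in LD and 3.10 in SD. The members just inside the limit were tag 26, whose smaller ratio was 6.02 with 1 TPM added, and tag 33 at 6.09, while the nearest tags outside it stood at 5.94 and 5.93. Another 63 tags had a smaller ratio of at least 5, so the limit cuts through a continuous range. Tags not listed in LD0 could not become members, and 904 of them stood at 10 TPM or more in both LD5 and SD5. Their rise was not evaluated, so the members are not all of the tags that may have risen.

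The rule asked of the day 2 libraries only that each tag be listed in both, which removed 34 of the 138 tags with the same day 5 rise, 19 of them missing from SD2 alone. Among the 104 that stayed, the photoperiods were far apart at day 2. In LD the median member had climbed from 4.93 to 20.0 TPM by day 2. In SD it stood at 4.71 TPM, about the day 0 level. By day 2, 82 of the 104 members were called above day 0 in LD, against 17.8% of all tags tested, while 9 were called above day 0 in SD, against 7.12% of all tags. These are 8.65% of the members in SD, near the background, and 78.8% in LD, far above it. Both counts share the day 0 library with the rule, which favours tags with a low day 0 value.

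**Figure D1:**
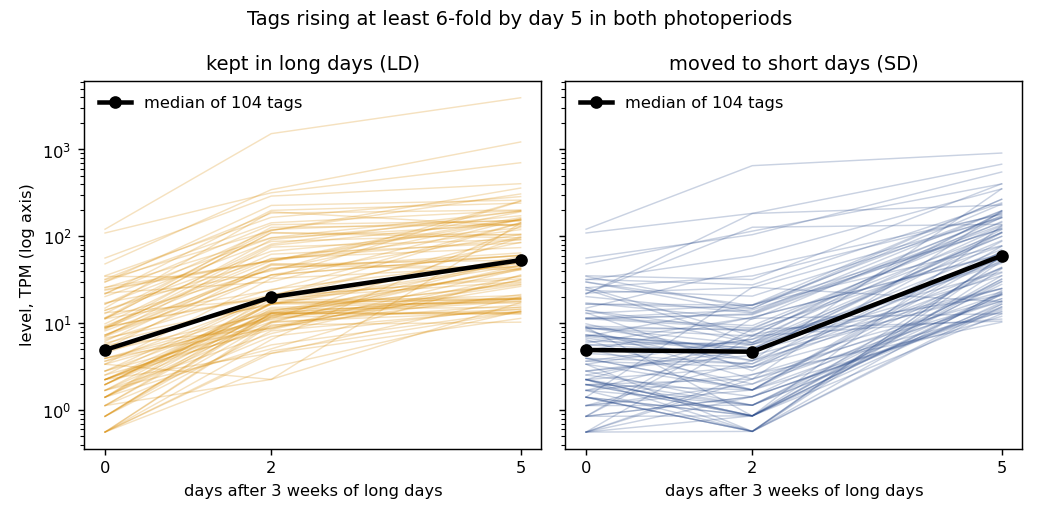
Level of each of the 104 tags in TPM, on a log axis, against days after 3 weeks of long days, with each thin line 1 tag and the black line the median of the 104 tags (left, kept in long days; right, moved to short days; both start from the same LD0 library). The median climbs from 4.93 to 20.0 and 53.3 TPM in LD, and in SD it is 4.71 TPM at day 2 before it reaches 60.0 TPM at day 5.

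How far each tag had come was expressed as the share of its log2 rise from day 0 to day 5 that was present at day 2. In LD the median share was 72.3%, with an interquartile range of 47.4% to 88.4%. In SD the median was -5.4%, with an interquartile range of -22.4% to 15.8%, where a negative share means a level below day 0. At least 50% of the rise was present at day 2 in 76 members in LD and in 7 in SD. The share was larger in LD than in SD in 99 of the 104 members. In SD, 60 members were at or below their day 0 value on day 2, against 2 in LD. Of all 6208 tags tested, 3367 were below day 0 in SD2 and 2799 in LD2. As a share, the SD count was thus near that of all tags, and the LD count was far below it. On a linear TPM scale the medians were 46.1% in LD and -1.26% in SD, so the size of the LD share depends on the scale while the distance between photoperiods stays wide on both.

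**Figure D2:**
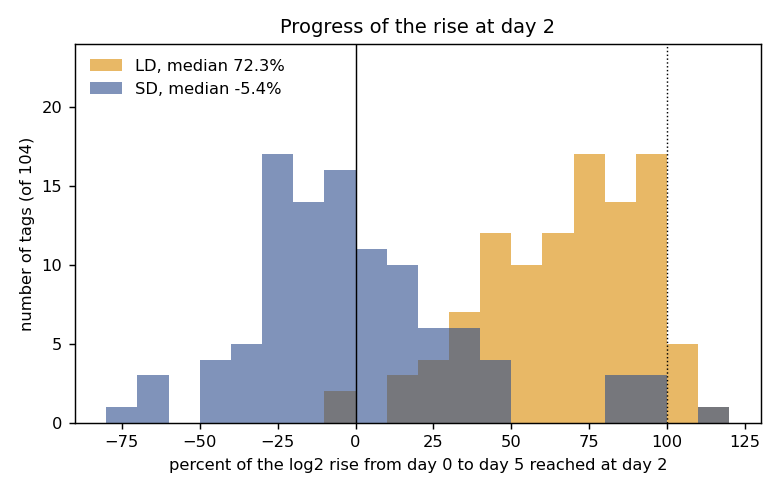
Number of tags, of 104, by the percent of the log2 rise from day 0 to day 5 that was reached at day 2, in bins of 10 percentage points, for LD (orange) and SD (blue, overlap in grey). Most of the SD tags lie near or below 0 with a median of -5.4%, and the LD tags centre on a median of 72.3%.

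The direct comparison of SD2 with LD2 uses neither of the ratios in the rule, although each member also had to be listed in both libraries. SD2 was lower by TPM in 101 of the 104 members. By the call rule 74 members were lower, or 71.2%, and 0 were higher, where 17.5% of all tags tested were lower and 6.46% higher. The median log2 ratio was -2.29 in the members and -0.04 over all 6208 tags, so that the median member in SD was 4.89-fold below LD with 1 TPM added. At least a 4-fold difference, also with 1 TPM added, was seen in 61 members on the lower side, against 7.18% of all tags, and in 0 on the higher side, against 0.37%. Of the 30 members not called, 27 were also lower in SD by TPM.

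**Figure D3:**
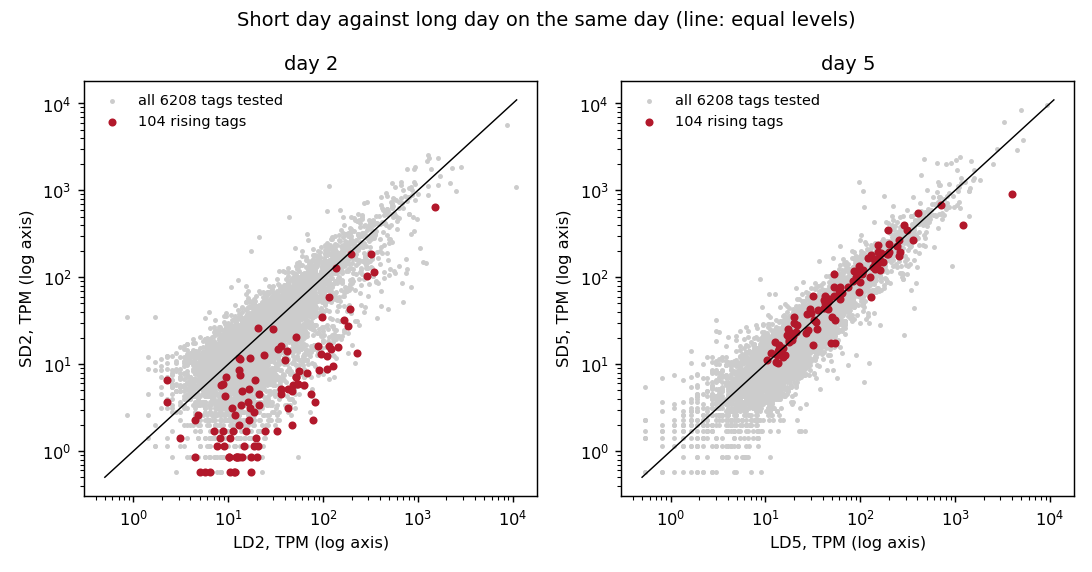
Level in SD against level in LD on the same day, in TPM on log axes, for the 104 rising tags (red) and all 6208 tags tested (grey), with a line of equal levels (left, day 2; right, day 5). At day 2, 101 of the 104 red points lie below the line; at day 5 they lie along it, with 66 above and 38 below and tags 1 and 2 farthest to the right.

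By timing at day 2 the members fell into 3 groups. The largest held 73 members that were called above day 0 in LD only. Their median went from 6.48 TPM at day 0 to 24.5 in LD2 and 4.56 in SD2, and then reached 58.6 in LD5 and 66.4 in SD5. A second group of 22 members was called above day 0 on day 2 in neither photoperiod, with medians of 1.97 TPM at day 0, 7.90 in LD2, 2.43 in SD2, 29.0 in LD5 and 26.6 in SD5. Many of these were too low to be called, and the LD median still lay above the SD median. The third group held the 9 members called above day 0 in both photoperiods. In SD only, 0 members were called above day 0. The share of all tags tested that falls into each of these groups was not counted, so their sizes only describe the members.

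The 9 members that had risen by day 2 in both photoperiods differed in how far they had come. Tag 10 stood at 21.7 TPM in LD0, 199 in LD2, 183 in SD2, 241 in LD5 and 229 in SD5. Its LD and SD levels at day 2 differed by 1.09-fold, with a counting interval of 0.975 to 1.21 that includes 1. Tag 26 went from 22.0 TPM at day 0 to 136 in LD2 and 127 in SD2, and ended at 151 in LD5 and 137 in SD5. On the log2 scale both tags thus had at least 90% of their rise in place at day 2 whichever the photoperiod. Tag 100 behaved the same way at a low level, from 0.85 TPM (3 tags) at day 0 to 13.3 in LD2 and 11.4 in SD2, with 13.3 and 12.9 at day 5. Of the 9 members, 4 were nevertheless called lower in SD2 than in LD2, among them tags 1, 2 and 23. Tag 23 stood at 14.9 TPM at day 0, 192 in LD2, 43.1 in SD2, 131 in LD5 and 178 in SD5. In LD it was highest at day 2, and in SD at day 5. Tags 23 and 100 were chosen for mention after their values were seen.

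Tag 69 was the only member higher in SD at day 2 than at day 5. It stood at 1.41 TPM (5 tags) in LD0, 20.6 in LD2, 49.4 in LD5, 25.9 in SD2 and 17.8 in SD5. Only 2 other members were higher in SD2 than in LD2. Tag 30 stood at 3.38 TPM at day 0, 2.26 in LD2 and 6.56 in SD2, and reached 143 in LD5 and 126 in SD5. Tag 81 stood at 1.13, 2.26 and 3.71 TPM in the same first 3 libraries and at 17.4 and 25.2 TPM at day 5. Neither passed the call rule at day 2. Most of their rise came after day 2 in either photoperiod, since the share present at day 2 was -8.46% in LD and 16.2% in SD for tag 30, and 19.8% and 31.6% for tag 81.

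The members with the widest gap between photoperiods at day 2 stood below day 0 in SD and above it in LD. Tag 19 stood at 8.46 TPM in LD0, 78.7 in LD2, 152 in LD5, 2.28 in SD2 and 197 in SD5. Its level in LD2 was 34.5-fold that in SD2 (interval 17.3 to 80.7), the SD value resting on 8 tags. By day 5 the order had turned, and SD stood at 1.30 times LD (interval 1.16 to 1.45). Tag 8 showed the same course, with 9.86 TPM at day 0, 81.5 in LD2, 3.71 in SD2, 196 in LD5 and 353 in SD5. It was 22.0-fold lower in SD at day 2 (interval 12.7 to 41.8) and 1.80-fold higher in SD at day 5 (interval 1.64 to 1.97). For tag 8, as for tag 19, SD passed from below LD to above it between day 2 and day 5, although neither passed the call rule at day 5. Tag 63 stood at 5.07 TPM at day 0, 46.5 in LD2 and 2.00 in SD2, and at 41.5 and 44.1 TPM in the LD and SD libraries of day 5. Tag 11 stood at 29.9 TPM at day 0, 227 in LD2, 13.4 in SD2, 262 in LD5 and 196 in SD5. Tag 38 stood at 7.05 TPM at day 0, 75.3 in LD2, 4.56 in SD2, 92.5 in LD5 and 112 in SD5. On the log2 scale, tags 63, 11 and 38 had more than 90% of their LD rise in place by day 2, whereas in SD the whole of it lay after day 2.

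A fall below day 0 in SD2 passed the call rule in 6 members, tags 9, 11, 16, 18, 39 and 41, or 5.77%, against 10.8% of all tags tested. No member was called below day 0 in LD2, against 12.6% of all tags. In 3 of the 6, tags 11, 18 and 39, the LD library of the same day was called above day 0. Tag 18 stood at 24.5 TPM at day 0, 53.0 in LD2 and 5.99 in SD2, and tag 39 at 14.1, 55.0 and 5.99 TPM. These were named after their values were seen.

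The interval from day 2 to day 5 was where most of the SD rise took place. From SD2 to SD5, 97 of the 104 members were called higher, against 20.5% of all tags tested, with a median log2 ratio of 3.41. From LD2 to LD5, 51 were called higher, against 6.04% of all tags, with a median log2 ratio of 0.95. The later libraries were used by the rule, so these counts describe when the chosen rise occurred. In LD, 6 members were already higher at day 2 than at day 5, and 0 members were called lower at day 5 than at day 2, against 7.81% of all tags.

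By day 5 the members were at similar levels in both photoperiods. Of the 104, 98 were not called between SD5 and LD5, 1 was called higher in SD and 5 lower, where 2.37% of all tags tested were higher and 6.81% lower. The median log2 ratio of SD over LD was 0.09, against -0.10 over all tags, and by TPM 66 members were higher in SD and 38 lower. Both libraries had to be high by the rule, so little can be read from this likeness.

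The 2 most abundant members were also lower in SD at day 5. Tag 1 stood at 120.9 TPM in LD0, 1521 in LD2, 3937 in LD5, 651 in SD2 and 909.7 in SD5. Its level in LD5 was 4.33-fold that in SD5 (interval 4.16 to 4.50), and in LD2 it was 2.34-fold that in SD2 (interval 2.22 to 2.45). Tag 2 stood at 48.2 TPM at day 0, 345 in LD2, 1219.9 in LD5, 115 in SD2 and 401 in SD5. In SD it was below LD 3.00-fold at day 2 (interval 2.68 to 3.37) and 3.04-fold at day 5 (interval 2.86 to 3.23). For these 2 tags SD stayed below LD on both days. For tag 1 the gap was wider at day 5 than at day 2, and the counting intervals of the ratios do not overlap.

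The next most abundant members were lower in SD2 than in LD2 and were not called different between photoperiods at day 5. Their SD2 levels were not all near day 0. Tag 3 stood at 109 TPM in LD0, 318 in LD2, 184 in SD2, 704 in LD5 and 677 in SD5. Tag 4 stood at 56.4 TPM at day 0, 291 in LD2, 105 in SD2, 404 in LD5 and 550.3 in SD5. Tag 5 stood at 35.2 TPM at day 0, 166 in LD2, 31.9 in SD2, 287 in LD5 and 403 in SD5. In tags 3 and 4 SD2 lay between day 0 and LD2, and in tag 5 it lay just under day 0. Tag 6 stood at 31.6 TPM at day 0, 117 in LD2, 59.6 in SD2, 308 in LD5 and 352 in SD5. Tag 7 stood at 13.0 TPM at day 0, 117 in LD2, 16.2 in SD2, 359.8 in LD5 and 267 in SD5. Tag 9 stood at 34.7 TPM at day 0, 33.6 in LD2, 14.8 in SD2, 254 in LD5 and 267 in SD5. Tags 3 and 6 were lower in SD at day 2 without passing the call rule. Tag 9 was called lower in SD at day 2, but not with TMM scaling, where its log2 ratio was -0.98, nor with 5 TPM added, where it was -0.96, and it had not risen by day 2 in LD either.

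The members with the largest rise by the mean of both photoperiods were tags 40, 30, 8, 62 and 7. Tag 40 stood at 0.56 TPM in LD0 and 0.57 in SD2, each from 2 tags, and at 6.49 in LD2, 131 in LD5 and 59.3 in SD5. Tag 62 stood at 0.85 TPM at day 0 and 0.86 in SD2, each from 3 tags, and at 12.1 in LD2, 54.8 in LD5 and 32.4 in SD5. Ratios to day 0 that rest on so few tags are loosely bounded. At day 0, 39 members rested on fewer than 10 tags, and in SD2 also 39. Among the 65 members with at least 10 tags at day 0, 81.5% were called lower in SD2 than in LD2, against 17.2% of the 6044 tested tags that also had at least 10 tags at day 0. In the upper 52 members by day 5 level the median log2 ratio of SD2 over LD2 was -2.61, and in the lower 52 it was -2.05.

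The 5 members called lower in SD at day 5 were tags 1, 2, 40, 67 and 69, and the members highest in SD relative to LD on that day were tags 44, 60 and 8. Tag 67 stood at 1.41 TPM in LD0, 10.2 in LD2, 0.86 in SD2, 54.8 in LD5 and 17.5 in SD5, 3.14-fold lower in SD at day 5 (interval 2.34 to 4.25). Its call at day 2 was lost with TMM and median-of-ratios scaling, with log2 ratios of -2.48 and -2.50 and a level in LD near the 10 TPM floor. Tag 44 stood at 4.51 TPM at day 0, 21.1 in LD2, 3.42 in SD2, 52.9 in LD5 and 109 in SD5, and was the 1 member called higher in SD at day 5 (2.07-fold, interval 1.74 to 2.47). Tag 60 stood at 3.95 TPM at day 0, 8.74 in LD2, 1.71 in SD2, 31.4 in LD5, with 60.7 in SD5. By TPM, tags 44 and 60 were thus below LD at day 2 and above it at day 5, as tags 8 and 19 were. Of these only tag 44 was called higher in SD at day 5. Tag 60 was not called at day 2 either, since both of its day 2 levels lay under 10 TPM.

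Together the members made up a small part of each library. They took 0.115% of all tags in LD0 (exact binomial interval 0.112% to 0.119%), 0.674% in LD2 (0.666% to 0.683%), 1.46% in LD5 (1.45% to 1.47%), 0.209% in SD2 (0.205% to 0.214%) and 1.13% in SD5 (1.12% to 1.15%). Their share was 5.84-fold above day 0 in LD2 and 1.81-fold above it in SD2. Both ratios were smaller without the 3 most abundant members, at 5.20 in LD2 and 1.31 in SD2 (interval 1.25 to 1.37). The share of all members in LD2 was 3.22-fold that in SD2 (interval 3.14 to 3.31), and in LD5 it was 1.29-fold that in SD5 (interval 1.27 to 1.30). Tag 1 alone held 27.0% of the members' tags in LD5, 31.1% in SD2 and 8.02% in SD5. Without the 3 most abundant members the share was 0.874% in LD5 and 0.935% in SD5, the other order, and 0.456% in LD2 against 0.114% in SD2. The lower total in SD at day 5 therefore rested on those 3 tags, and the lower total at day 2 did not. At day 5 it was chiefly tags 1 and 2, since tag 3 stood at 704 TPM in LD5 and 677 in SD5.

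**Figure D4:**
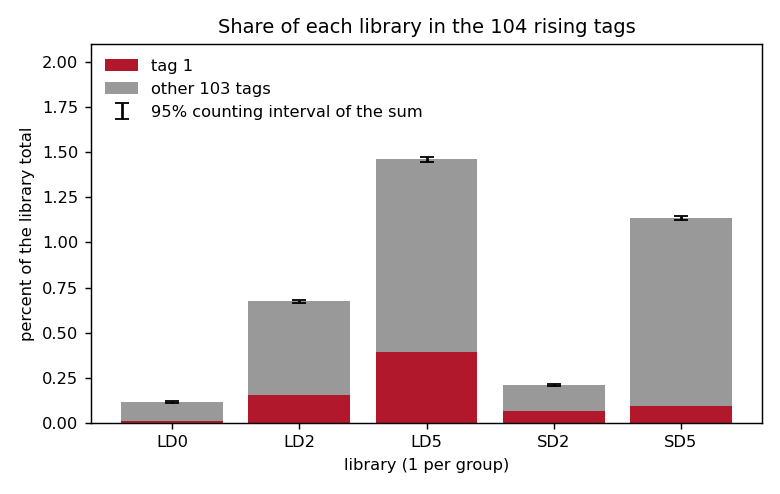
Percent of each library's total taken by the 104 rising tags, with 1 library per group, tag 1 in red, the other 103 tags in grey, and bars for the 95% counting interval of the sum. The share is 0.209% in SD2 against 0.674% in LD2, and 1.13% in SD5 against 1.46% in LD5.

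A low level in SD2 was also seen in tags that passed the 6-fold limit in 1 photoperiod alone. In the 49 tags that reached 6-fold by LD5 but not by SD5, 28 were called lower in SD2 than in LD2, with a median log2 ratio of -1.87. In the 69 tags that reached it by SD5 but not by LD5, 34 were called lower, with a median of -1.79. These were 57.1% of the 49 and 49.3% of the 69, against 17.5% of all tags tested. The reverse pattern was seen in the 108 tags that were at least 6-fold lower by day 5 in both photoperiods. Of these, 83 were called below day 0 in LD2 and 23 in SD2, and 49 were called higher in SD2 than in LD2, with a median log2 ratio of 0.98. The counts were 76.9%, 21.3% and 45.4% of the 108, against 12.6%, 10.8% and 6.46% of all tags tested. At day 2, SD therefore stood nearer to day 0 than LD did for the rising and for the falling tags. With 1 library per group, a later course in SD and a property of the SD2 library cannot be told apart.

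The members shared little else that could be measured. The 17 bases that follow the cut site had a median GC content of 29.4%, with an interquartile range of 23.5% to 41.2%, against a median of 35.3% and a range of 29.4% to 47.1% over all tags tested. No member differed by 1 base from another member or from a more abundant listed tag. Over all tags tested, 0.773% had a more abundant listed tag at 1 base. In the order in which the day 0 library lists the tested tags, 3 pairs of members stood next to each other. What that order stands for is not given in the sources used here.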

How the data were processed

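Per the labels' protocols, tag libraries were built from polyadenylated plantlet RNA with an Illumina gene expression kit. The deposited values are headed TPM, per the file headers, and are tags per 1000000 tags of the library (an RPM unit, with no division by transcript length). Aligner, reference, build and filters were not given in the sources used here. At least 99.98% of values in each library lay within 0.006 TPM of a whole multiple of a common step, which was taken as 1 tag, and the lowest value was 2 tags. This gave library totals of 3548031 (LD0), 3545582 (LD2), 3688118 (LD5), 3507407 (SD2) and 3492458 tags (SD5), and 10 TPM rests on 34.9 to 36.9 tags.

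Ratios are of TPM values, and log2 ratios have 1 TPM added, which understates the change of low tags. The intervals printed are Clopper-Pearson at 95% on recovered tags (scipy 1.17.1, pandas 2.3.3, Python 3.11.15) and cover counting error only. Alternative values of the medians were instead set against a 95% interval of the median, taken from the ranked values of the members. That interval treats the tags as independent, although they are not replicates, so it measures no error between libraries. No count model was run, since each group is 1 library. A tag missing from a library was not taken as 0. The members and lists were chosen with earlier results of these data known. Tags named were the 10 most abundant, the 5 with the largest mean rise, the 5 lowest and 5 highest in SD2 over LD2, and the 3 lowest and 3 highest in SD5 over LD5, which makes 23 tags. Others are said to have been named after their values were seen. Alternatives were other pseudocounts, floors, folds and scalings.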

Additional observations from a re-analysis of the deposited data

Results flagged for a closer look

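Day 2 moved in opposite directions from day 0 in the 2 photoperiods, above in LD and below in SD, in 3 members by the call rule, or 2.88%, against 1.34% of all tags tested. Among the tags named by rule this was tag 11, whose log2 ratio of SD2 over LD0 was -1.10 while that of LD2 was 2.88. Of the tags called above day 0 in LD2, 3 of 82 members and 83 of 1107 tags tested were called below it in SD2. That is a smaller part of the members than of all tags, so the count is not read as a trait of the members. The difference between photoperiods was not tested, since each group has a single library.

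Outside the comparisons, 34 tags also met the same 6-fold rule at day 5 but were not listed in 1 or both day 2 libraries. Of these, 19 were missing from SD2 only, 9 from LD2 only and 6 from both. The 19 had a median of 13.5 TPM in LD2. A tag that is not listed was not taken as 0, so these 34 were not analysed further.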

How the results depend on the processing

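No paired analysis was possible because each group has 1 library, and no library could be left out. Of 142 alternative values of the counts, medians and the ratio of library shares, 102 stayed within 1.5 times the reported count or within the interval of the value. Some of the 102 could not differ, such as the number of members where the members were kept, so the tally is no measure of robustness. The medians kept their sign, and the ratio of library shares stayed below 1, in every alternative. Alternatives that changed the rule changed the number of members: 159 with 0.1 TPM added, 36 with 5 TPM added, 61 with a floor of 50 TPM, 301 at 4-fold, 39 at 8-fold and 65 with at least 10 tags at day 0. Choosing members again after scaling gave 90 with TMM, 84 with median-of-ratios and 71 with listed-tag scaling. In that order, 55, 52 and 50 of them were called lower in SD2 than in LD2. In the order 5 TPM added, floor of 50, 4-fold and 8-fold, members called above day 0 in LD2 were 27, 31, 231 and 34, those above day 0 in SD2 were 4, 4, 42 and 3 (16 with 0.1 TPM added and 14 with no floor), and those lower in SD2 than in LD2 were 29, 28, 195 and 30. As a share of the members chosen, the last count ran from 45.9% (floor of 50) to 81.5% (at least 10 tags at day 0). The floor and the TPM added applied to the calls as well as to the choice of members. With a floor of 50, a member below 50 TPM in both libraries could not be called, and the median log2 ratio of SD2 over LD2 was -2.60. With no floor 1 member was called higher in SD2 than in LD2. The share of all tags tested that was lower in SD2 is given only for the main setting and for at least 10 tags at day 0 (17.2%). At the other settings the counts of members called therefore have no background to be read against. The median share of the rise at LD2 was 58.1% with 5 TPM added and 46.1% on a linear scale. The median log2 ratio of SD2 over LD2 was -1.59 with 5 TPM added and -2.71 at 8-fold, and it lay between -2.14 and -2.20 under TMM, median-of-ratios and listed-tag scaling. TMM moved the median of all tags in that pair from -0.04 to 0.11. The ratio of library shares, SD2 over LD2, was 0.311 as reported, 0.326 with 5 TPM added, 0.375 at 4-fold, 0.261 at 8-fold, 0.342 as a share of listed tags and 0.251 without the 3 most abundant members. The library shares themselves stayed within their counting intervals in 5 of 45 alternatives. As shares of the listed tags they were 0.218% (LD0), 1.20% (LD2), 2.48% (LD5), 0.411% (SD2) and 1.90% (SD5). At day 5, members lower in SD were 3 with 5 TPM added, 2 at 8-fold and 2 with at least 10 tags at day 0. Members higher in SD were 2 with 0.1 TPM added, 0 with 5 TPM added, and 3 at 4-fold and with TMM or median-of-ratios factors, members kept or chosen again. Except where an alternative admits fewer or more tags, the cause was not tested. The settings on scalings with members kept, on the linear scale, on at least 10 tags at day 0 and on tags listed in only 3 libraries were added after seeing the data.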
